A study of Homo sapiens with 18 samples.

Results

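The genes described here are 42 genes known to be activated by wild-type p53, and they were followed in PEO1 cells, a human ovarian cancer line, after siRNA knockdown of p53. They are a list of known targets in the p53 pathway, taken by name, with BCL2 family members and SESN2 left out. The list was chosen with earlier results of these data known. All 42 had counts among the 57736 rows of the count table, and 37 passed the filter on low counts that left 15318 genes for testing. The other 5, CMBL, EDA2R, TNFRSF10C, RRAD and SPATA18, had only 26, 22, 11, 10 and 10 counts over all 18 libraries. The sip53 groups were PEO1 cells transfected with an siRNA labelled sip53 and treated with 10 nM estradiol (E2), the main ovarian estrogen, for 0, 2 or 8 h. The siControl groups were PEO1 cells given a control siRNA and the same E2 times. Each of the 6 groups held 3 samples, and every group had spent 48 h in medium stripped of steroid hormones. The 0 h samples were untreated. The series title speaks of mutant p53 and has its bearing on estrogen receptor activity as the subject. The labels name a single siRNA reagent per arm in a single cell line, so other siRNAs and other lines were not measured.

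p53 is a transcription factor that binds DNA as a tetramer and switches on genes for cell cycle arrest, DNA repair, cell death and metabolism when DNA is damaged. Many p53 mutants of tumours have lost most of this binding, and p53 in ovarian serous carcinoma is usually mutated. A p53 response element consists of a pair of 10-base half-sites, each built round a 4-base core that begins with C and ends with G, set next to each other or a short gap apart. Levels below are TMM-normalised CPM, reads scaled to a common library size. The libraries read the 3′ ends of transcripts, so CPM here does not scale with transcript length. Changes are log2 fold changes, sip53 over siControl or E2 over 0 h, with their standard error (SE). A gene was called when its adjusted p was under 0.05.

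Total counts ran from 9225939 to 11307199 in the sip53 libraries and from 7542457 to 10132570 in the siControl libraries. Library siControl 0 h replicate 2 had the lowest depth. Its root mean square deviation from the group mean was 0.403, against 0.389 for replicate 1 and 0.335 for replicate 3. Distances were also read as a chi-square between libraries, divided by its degrees of freedom. In the siControl 0 h group it was 22.9 for replicates 1 and 2, 12.2 for 1 and 3 and 10.4 for 2 and 3. Library sip53 0 h replicate 1 stood apart, at 11.285 and 12.9 against the other samples of its group, which had 5.37 against each other. The epithelial and ovarian carcinoma markers EPCAM, KRT7, KRT8, KRT18, KRT19, PAX8 and WT1 were present, while SOX17, from the same list, was at 0. The fibroblast markers COL1A2, COL3A1, DCN and LUM and the leukocyte markers PTPRC, CD3E and MS4A1 were at 0. In the fibroblast list THY1 was present at 81.2 to 143 CPM in sip53 samples and 96.1 to 122 CPM in siControl samples. In the same order, FAP had 7.20 to 13.3 and 9.42 to 17.1 CPM, and COL1A1 6.04 to 13.3 and 4.64 to 12.8 CPM. Of the leukocyte list CD14 had 4.59 to 9.12 and 4.01 to 8.45 CPM, and CD68 7.20 to 10.8 and 5.01 to 11.5 CPM. Of the 3 fibroblast markers tested, 1 was called higher and 1 lower in the mean over times, against 16.1% and 18.5% of all genes. Some of the epithelial markers moved with the siRNA. Of the 14 tested, 6 were called higher (42.9%, against 16.1% of all genes), 0 lower and 8 not called, and 3 had a negative fold change. Their summed level was 7267 to 8629 CPM in sip53 samples against 5898 to 6570 CPM in siControl samples. The highest levels in that sum were those of KRT7, KRT18 and KRT19, with medians of 1845, 1823 and 1749 CPM in sip53 samples and 1311, 1442 and 1201 CPM in siControl samples. PAX8 and MUC16 had lower medians in sip53 samples, with overlapping arms. The fibroblast sum was 100 to 159 CPM in sip53 samples and 119 to 138 CPM in siControl samples, the leukocyte sum 15.1 to 18.7 CPM against 10.9 to 20.7 CPM, and the endothelial sum 3.00 to 6.09 CPM against 1.67 to 4.92 CPM. The part of depth and of the epithelial shift in the results below was not tested.

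Promoter windows of 300 bases, from 250 bases before to 50 after an annotated start, were available for 31 of the 42 genes (RefSeq, build GRCh38.p14). An exact p53 half-site on either strand was found in 9 of the 31 genes (29%), against 8.06% of all 27305 genes with a window. A pair of adjoining half-sites, 0 or 1 base apart, with both cores' C and G intact and at most 2 other mismatches, was found in 4 of the 31 (12.9%), against 0.674% of all genes. Some genes had more than 1 window, and a gene was counted when any of its windows matched. Counted by window, 19.1% of the 47 windows of these genes held a half-site, against 6.63% of all 35116 windows. For the pair the shares were 8.51% and 0.533%. The following sites are printed because they show what such an element looks like in genes whose levels are described below. Capitals mark the 4-base core of each half-site, and each sequence is written 5′ to 3′ on the strand of its gene. DDB2, AEN, FAS and PANK1 held paired half-sites, and the others held a single one.
DDB2, chr11:47214979-47214999, plus strand: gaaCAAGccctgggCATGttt
AEN, chr15:88621306-88621325, plus strand: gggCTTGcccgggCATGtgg
FAS, chr10:88991309-88991328, plus strand: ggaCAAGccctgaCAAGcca
PANK1, chr10:89645256-89645275, minus strand: gggCAGGactgggCATGctc
RPS27L, chr15:63157527-63157536, minus strand: agaCAAGccc
FDXR, chr17:74872996-74873005, minus strand: gggCTTGccc
PLK2, chr5:58460209-58460218, minus strand: agaCTTGctt

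The DDB2 element had 0 mismatches and a 1-base gap, and began 6 bases after the start. The elements of AEN, FAS and PANK1 had 2 mismatches each and no gap. The single half-sites of RPS27L, FDXR and PLK2 began 59, 11 and 132 bases before their starts. Exact half-sites were present in 3 of the 12 genes with a window that were lower after knockdown, in 1 of the 4 that were higher and in 5 of the 13 that were not called. The window of CDKN1A held none, which says only that these letters are not in that window. A match is a description of sequence and not evidence of binding.

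Many of the p53-activated genes were lower after the knockdown. Averaged over the 3 E2 times, 21 of the 37 tested genes were called (56.8%), against 34.6% of all 15318 genes. Of these, 17 were lower in sip53 cells (45.9%, against 18.5% of all genes) and 4 were higher (10.8%, against 16.1% of all genes). The median log2 fold change of the 37 was -0.17, against 0.01 for all genes tested. These genes were chosen with earlier results of these data known. In a wider list of p53-activated genes, read further below, 62 were tested. Of those, 19.4% were lower and 12.9% higher, close to the shares of all genes. The part of the choice of genes in the shares above was not tested. The lower genes included the p21 gene CDKN1A, the ribosomal protein gene RPS27L, the stress cytokine gene GDF15 and 5 of 5 tested genes of DNA repair and nucleotide supply. The higher genes were CCNG1, PLK2, DRAM1 and CD82. Because whole cultures were measured, fewer cells of a kind and less RNA per cell cannot be told apart. Without sip53 0 h replicate 1 the counts were again 17 lower and 4 higher. Of the 21 calls, 18 held when any single library of the 18 was left out. The exceptions, RRM2B, PLK3 and CD82, are given with their genes.

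**Figure D1:**
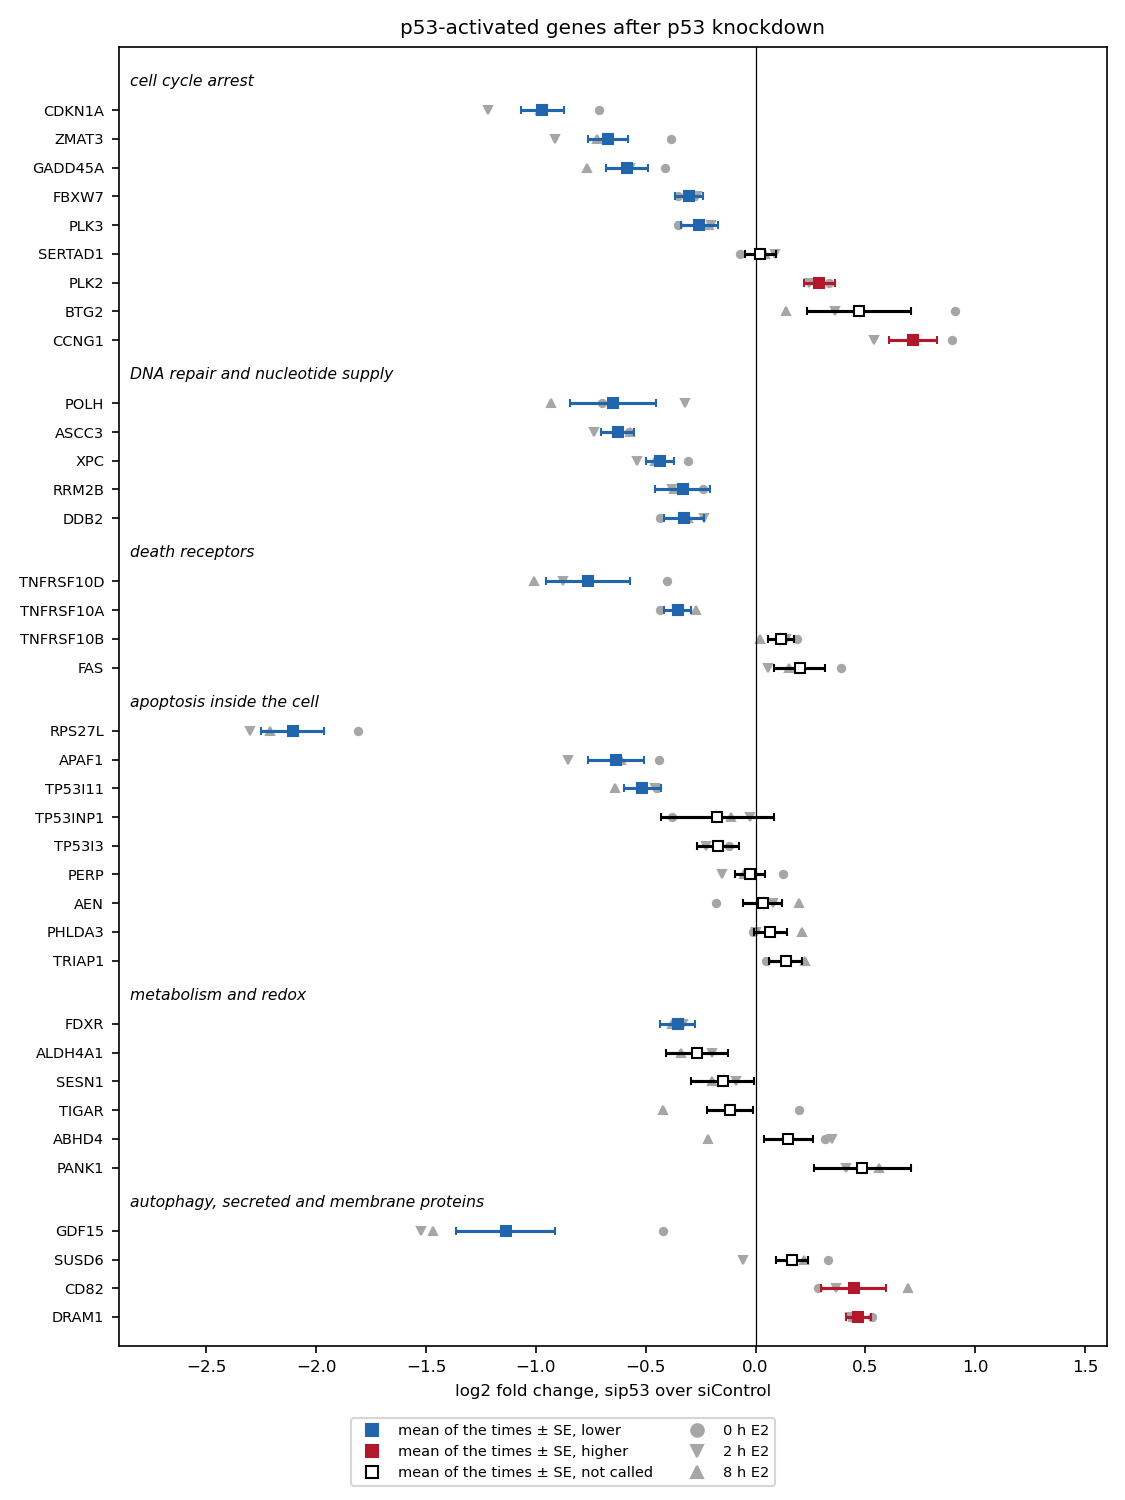
Log2 fold change of the 37 tested p53-activated genes, sip53 over siControl, grouped by role; squares are the mean over the 3 E2 times with bars of ± SE (filled where called) and grey marks are the single times. Most filled squares lie left of 0, with RPS27L farthest at -2.11, and 4 called genes lie to the right, with CCNG1 farthest at 0.72.

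RPS27L stood lowest among the genes of apoptosis inside the cell. It encodes a ribosomal protein closely related to RPS27, is a direct p53 target and is known to bear on p53 stability and apoptosis. RPS27L lies on chr15:63125872-63158021 (GRCh38, minus strand). In sip53 cells the level of RPS27L was 43.9, 17.2 and 21.8 CPM at 0 h, 17.96, 21.1 and 17.2 CPM at 2 h and 18.3, 33.2 and 17.2 CPM at 8 h. In siControl cells it was 99.8, 88.8 and 103 CPM at 0 h, 105, 91.2 and 80.7 CPM at 2 h and 123, 102 and 92.9 CPM at 8 h. Every sip53 sample lay below every siControl sample, and the sip53 samples at 43.9 and 33.2 CPM stood above the other sip53 samples. The log2 fold change was -2.11 ± 0.14 (fold 0.232, adjusted p = 6.79e-10), and -2.27 without sip53 0 h replicate 1. The paralog RPS27, which encodes the ribosomal protein itself, had 342 to 449 CPM in sip53 samples and 250 to 385 CPM in siControl samples, so the arms overlapped. RPS27 was higher by 0.32 ± 0.07 (adjusted p = 0.00101). No source used here says how the authors' counting assigned reads shared by these near relatives.

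APAF1, the scaffold of the apoptosome that activates caspase-9, had a lowest, median and highest level of 6.94, 9.95 and 18.3 CPM in sip53 samples and 13.2, 16.9 and 21.7 CPM in siControl samples. The arms were separate at 2 h and overlapped at 0 h and 8 h, and the log2 fold change was -0.63 ± 0.13 (adjusted p = 0.000458). TP53I11, which encodes a membrane protein first found as p53-induced, had 11.02, 13.9 and 17.1 CPM in sip53 samples and 17.3, 20.4 and 23.1 CPM in siControl samples. All 9 sip53 samples lay below all 9 siControl samples, by a narrow margin, and the log2 fold change was -0.51 ± 0.09 (adjusted p = 7.41e-05). The other 6 tested genes of this role were not called, with log2 fold changes from -0.17 to 0.14. PERP, a desmosome protein with a death-promoting role, had 199, 214 and 282 CPM in sip53 samples and 156, 235 and 293 CPM in siControl samples (-0.03 ± 0.07, adjusted p = 0.803). TRIAP1, a mitochondrial lipid-transfer partner that restrains apoptosis, differed by 0.14 ± 0.07 (adjusted p = 0.169). The remaining 4 were the oxidoreductase gene TP53I3, the AKT inhibitor gene PHLDA3, the nuclease gene AEN (0.03 ± 0.09, adjusted p = 0.804) and TP53INP1, which promotes p53 phosphorylation and autophagy. SPATA18, a gene of mitochondrial quality control, had too few counts to be tested.

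Among the 9 cell cycle arrest genes, 5 were lower and 2 were higher in sip53 cells (55.6% and 22.2%, against 18.5% and 16.1% of all genes). CDKN1A encodes p21, the inhibitor of cyclin-dependent kinases through which p53 halts the cell cycle, and lies on chr6:36676460-36687339 (plus strand). Its level in sip53 cells was 12.4, 13.4 and 14.9 CPM at 0 h, 11.7, 9.58 and 10.0 CPM at 2 h and 14.2, 10.9 and 9.40 CPM at 8 h. In siControl cells it was 21.7, 26.3 and 18.8 CPM at 0 h, 26.7, 24.2 and 22.2 CPM at 2 h and 22.0, 25.7 and 20.6 CPM at 8 h. Again no sip53 sample reached the lowest siControl sample. The log2 fold change was -0.97 ± 0.10 (fold 0.510, adjusted p = 2.35e-07).

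ZMAT3, an RNA-binding zinc finger protein that restrains growth, had 8.62, 11.7 and 15.6 CPM (lowest, median, highest) in sip53 samples and 14.03, 18.7 and 21.9 CPM in siControl samples. The arms were separate at each time taken alone but overlapped across times, and the log2 fold change was -0.67 ± 0.09 (adjusted p = 9.4e-06). GADD45A, a stress sensor that binds p21 and PCNA, had 45.6, 57.4 and 119 CPM in sip53 samples and 66.9, 83.0 and 191 CPM in siControl samples, with the 8 h samples highest in both arms. The arms were separate at 2 h and 8 h and overlapped at 0 h, and the log2 fold change was -0.58 ± 0.09 (adjusted p = 6.03e-05). FBXW7, the ubiquitin ligase subunit that marks cyclin E and MYC for breakdown, had 60.6, 62.8 and 74.0 CPM in sip53 samples and 67.0, 77.6 and 104 CPM in siControl samples. The arms were separate at each time taken alone but overlapped across times. The highest FBXW7 level was that of siControl 0 h replicate 2, and the log2 fold change was -0.30 ± 0.06 (adjusted p = 0.000683).

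PLK3, a stress-activated polo-like kinase, had 21.3, 24.8 and 33.8 CPM in sip53 samples and 21.7, 32.1 and 37.7 CPM in siControl samples. The arms overlapped widely, and the log2 fold change was -0.26 ± 0.09 (adjusted p = 0.0231). The PLK3 call was lost without siControl 0 h replicate 2, siControl 2 h replicate 3, siControl 8 h replicate 3, sip53 2 h replicate 2 or sip53 8 h replicate 3, at adjusted p of 0.0528, 0.0772, 0.0546, 0.0556 and 0.0570. The related kinase gene PLK2 went the other way, with 116, 133 and 157 CPM in sip53 samples and 82.0, 115 and 124 CPM in siControl samples. Its arms were separate at 0 h and 8 h and overlapped at 2 h, and it was higher by 0.29 ± 0.07 (adjusted p = 0.00225). CCNG1 encodes cyclin G1, a p53 target that recruits a phosphatase to MDM2. Its level in sip53 cells was 56.4, 47.6 and 53.6 CPM at 0 h, 50.5, 60.2 and 50.01 CPM at 2 h and 52.0, 55.7 and 56.5 CPM at 8 h. In siControl cells it was 41.2, 16.6 and 26.5 CPM at 0 h, 38.4, 34.5 and 37.8 CPM at 2 h and 30.5, 39.0 and 30.3 CPM at 8 h. Every sip53 sample lay above every siControl sample, and siControl 0 h replicate 2 was the lowest. The log2 fold change was 0.72 ± 0.11 (fold 1.64, adjusted p = 3.46e-05), and CCNG1 was the only one of the 37 tested genes with separate arms in that direction. SERTAD1, a regulator of CDK4, and BTG2, an antiproliferative adaptor of mRNA deadenylation, were not called, at 0.02 ± 0.07 (adjusted p = 0.845) and 0.47 ± 0.24 (adjusted p = 0.131).

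All 5 genes of DNA repair and nucleotide supply were lower, against 18.5% of all genes. ASCC3, a helicase that opens DNA for alkylation repair, had 46.1, 54.7 and 68.9 CPM in sip53 samples and 67.9, 85.9 and 102 CPM in siControl samples. A single sip53 sample, 0 h replicate 1, overlapped a single siControl sample, 8 h replicate 3, and the log2 fold change was -0.63 ± 0.07 (adjusted p = 1.66e-06). XPC, the damage sensor that starts nucleotide excision repair, had 39.5, 48.8 and 55.2 CPM in sip53 samples and 56.6, 65.2 and 71.7 CPM in siControl samples. The arms did not overlap, and the log2 fold change was -0.44 ± 0.06 (adjusted p = 1.79e-05). DDB2, the partner sensor for ultraviolet damage and the gene whose paired half-sites printed above had no mismatch, had 19.4, 25.4 and 28.4 CPM in sip53 samples and 22.0, 29.8 and 43.5 CPM in siControl samples. Its arms were separate at 0 h and 2 h and overlapped at 8 h, and it fell by 0.33 ± 0.09 on the log2 scale (adjusted p = 0.00700).

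POLH, the polymerase that copies past ultraviolet lesions, had 2.35, 3.84 and 5.39 CPM in sip53 samples and 3.59, 5.44 and 8.69 CPM in siControl samples. It fell by 0.65 ± 0.20 (adjusted p = 0.0125), with overlapping arms. RRM2B, the p53-induced subunit of ribonucleotide reductase, had 11.6, 15.04 and 20.7 CPM in sip53 samples and 14.5, 17.8 and 24.3 CPM in siControl samples. The arms were separate at 0 h and 8 h, but overlapped at 2 h and widely across times. RRM2B passed the test at -0.33 ± 0.13 (adjusted p = 0.0434). Its call was lost, at adjusted p of 0.0502 to 0.114, when any of 10 libraries was left out. They were siControl 0 h replicate 3, siControl 2 h replicates 1 and 2, siControl 8 h replicate 2, sip53 0 h replicate 2, sip53 2 h replicates 1 and 2, and each of the 3 sip53 8 h samples.

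The death receptor genes did not move together. TNFRSF10A, which encodes the TRAIL receptor DR4, had 72.0, 76.2 and 84.0 CPM at 0 h, 76.1, 85.5 and 83.6 CPM at 2 h and 88.0, 92.8 and 75.5 CPM at 8 h in sip53 cells. In siControl cells it had 101, 106 and 107 CPM at 0 h, 95.7, 113 and 106 CPM at 2 h and 111, 94.1 and 105 CPM at 8 h. The arms did not overlap, although the highest sip53 and lowest siControl samples were close, and the log2 fold change was -0.36 ± 0.06 (adjusted p = 8.6e-05). TNFRSF10D, a decoy receptor for TRAIL, had 1.63, 4.04 and 6.89 CPM in sip53 samples and 3.71, 7.07 and 9.50 CPM in siControl samples. It fell by 0.76 ± 0.19 on the log2 scale (adjusted p = 0.00331), with arms separate at 0 h and 2 h and overlapping at 8 h. TNFRSF10B, the TRAIL receptor DR5 from the same cluster on chromosome 8, had 89.8, 108 and 118 CPM in sip53 samples and 79.0, 102 and 116 CPM in siControl samples (0.11 ± 0.06, adjusted p = 0.140). FAS, the receptor of FAS ligand, had 9.66, 14.02 and 16.3 CPM in sip53 samples and 8.85, 11.8 and 13.2 CPM in siControl samples (0.20 ± 0.11, adjusted p = 0.185). The decoy receptor gene TNFRSF10C and the ectodysplasin receptor gene EDA2R were below the filter. The TNFRSF10 genes are close relatives, and reads they share could have been split by the counting.

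Of the 6 tested genes of metabolism and redox, 1 was called (16.7%, against 34.6% of all genes). FDXR, which passes electrons to mitochondrial cytochromes P450 and to iron-sulfur assembly, had 17.6, 20.2 and 22.7 CPM in sip53 samples and 22.7, 26.3 and 30.6 CPM in siControl samples. The arms were separate at each time taken alone but met at 22.7 CPM across times, and the log2 fold change was -0.35 ± 0.08 (adjusted p = 0.00153). The other 5 ranged from -0.27 to 0.49. They were TIGAR, a phosphatase that diverts sugar from glycolysis (-0.12 ± 0.10, adjusted p = 0.416), ABHD4, a lipase of N-acyl phospholipids (0.15 ± 0.11, adjusted p = 0.327), the sestrin gene SESN1, the proline-pathway gene ALDH4A1 and the coenzyme A synthesis gene PANK1 (0.49 ± 0.22, adjusted p = 0.0921). The hydrolase gene CMBL was below the filter.

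The autophagy, secreted and membrane proteins held the gene with the second lowest fold change and 2 of the 4 higher genes. GDF15, a secreted stress cytokine, was scarce. It had 2.20, 1.93 and 1.45 CPM at 0 h, 2.13, 1.68 and 0.993 CPM at 2 h and 1.51, 2.97 and 2.66 CPM at 8 h in sip53 cells. It had 1.80, 2.31 and 3.42 CPM at 0 h, 3.29, 4.12 and 6.48 CPM at 2 h and 5.68, 8.91 and 5.22 CPM at 8 h in siControl cells. The arms overlapped at 0 h and were separate at 2 h and 8 h, and the log2 fold change was -1.14 ± 0.23 (fold 0.454, adjusted p = 0.000460).

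DRAM1, a lysosomal membrane protein that promotes autophagy, went up. Its level in sip53 cells was 147, 165 and 169 CPM at 0 h, 182, 173 and 172 CPM at 2 h and 144, 151 and 132 CPM at 8 h, and in siControl cells it was 119, 111 and 102 CPM at 0 h, 139, 120 and 133 CPM at 2 h and 110, 108 and 97.3 CPM at 8 h. At each time taken alone the arms were separate, and the log2 fold change was 0.47 ± 0.06 (fold 1.38, adjusted p = 1.72e-06). CD82, a tetraspanin known as a metastasis suppressor, had 20.3, 27.3 and 32.4 CPM in sip53 samples and 9.74, 19.9 and 27.2 CPM in siControl samples. The arms overlapped and the log2 fold change was 0.45 ± 0.15 (adjusted p = 0.0222). The CD82 call was lost without siControl 2 h replicate 2, siControl 8 h replicate 1, siControl 8 h replicate 2 or sip53 0 h replicate 3, at adjusted p of 0.0527, 0.0548, 0.0530 and 0.0599. SUSD6, a membrane protein with a sushi domain, was not called (0.16 ± 0.07, adjusted p = 0.0853). RRAD, a Ras-related GTPase gene, was below the filter.

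**Figure D2:**
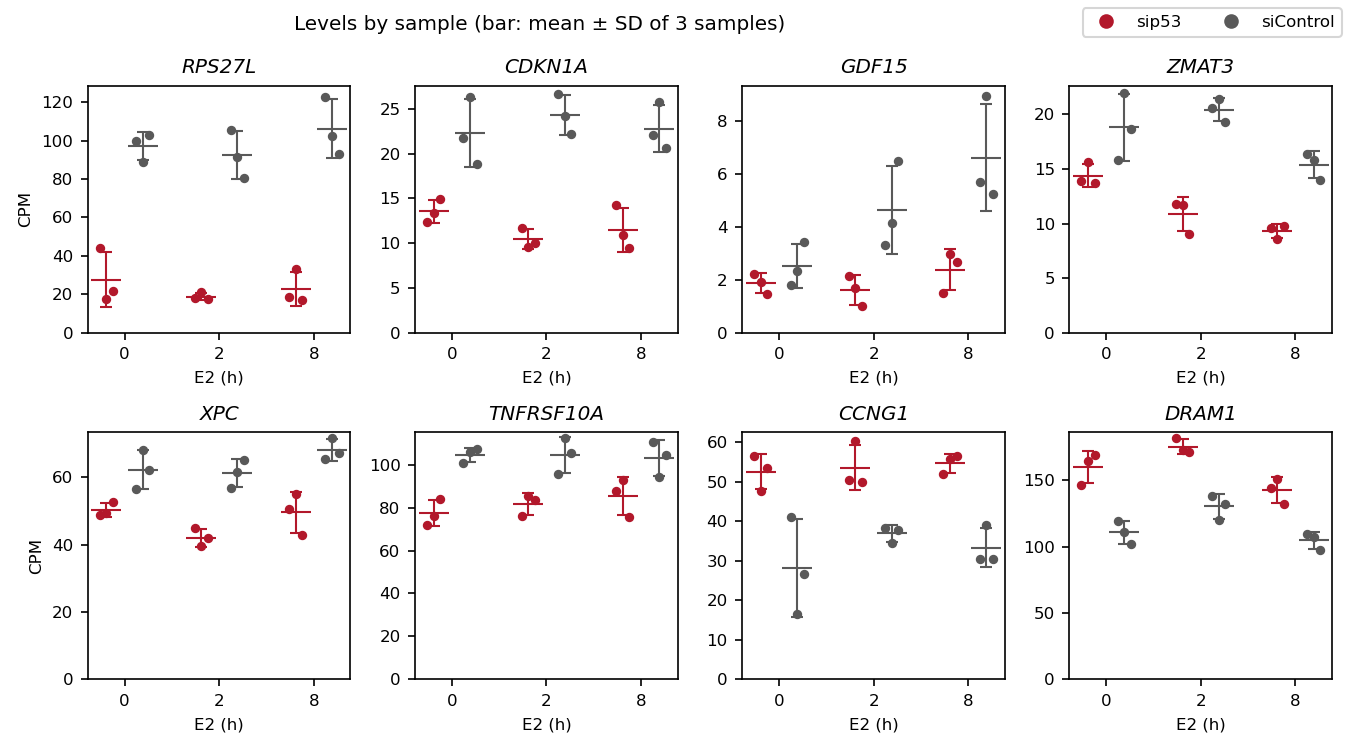
Level of 8 p53-activated genes in every sample (CPM, linear axes from 0) against hours of E2, sip53 in red left of siControl in grey; horizontal lines and bars are the mean ± SD of 3 samples. RPS27L and CDKN1A are lower in every sip53 sample, CCNG1 is higher in every sip53 sample, and GDF15 reaches 8.91 CPM in a siControl 8 h sample against at most 2.97 CPM in sip53 samples.

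Some of these genes share exonic sequence with a neighbour in the annotation (GENCODE v29), which was the case for 20 of the 42. Among the called genes, XPC overlapped the antisense gene AC093495.1 by 1140 bases, AC090004.1 by 413 and LSM3 by 318, all on the other strand. APAF1 overlapped ANKS1B by 750 bases and TP53I11 overlapped TSPAN18 by 74. TNFRSF10A overlapped AC100861.1 by 266 and TNFRSF10A-AS1 by 224, CDKN1A overlapped DINOL by 146, and DRAM1 overlapped AC084398.2 by 56, again on the other strand. The library kit keeps the strand, but no source used here gives the strand setting of the authors' counting, so the counts of such genes are uncertain to that extent.

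The knockdown was next compared at each E2 time. These comparisons use different libraries at each time. At 0 h 7 of the 37 genes were called (18.9%, against 9.12% of all genes), 5 lower and 2 higher, against 5.14% of all genes lower and 3.98% higher. At 2 h 11 were called (29.7%, against 12.2% of all genes), 10 lower and 1 higher, against 7.79% lower and 4.42% higher. At 8 h 10 were called (27%, against 8.96% of all genes), 8 lower and 2 higher, against 6.14% lower and 2.81% higher. The median log2 fold change of the 37 was -0.24 at 0 h, -0.20 at 2 h and -0.22 at 8 h. In all, 13 genes were called at 1 time or more, and each of them was also called in the mean over the times. The share of all genes called at 1 time or more was not taken, so that count has no background. RPS27L, CDKN1A and ASCC3 were lower at all 3 times, and DRAM1 was higher at all 3. The fold changes had the same sign at all 3 times in 30 genes, 21 of them negative and 9 positive, and in the other 7 the sign varied. Across the 37 genes, Pearson's r between times was 0.86 for 0 and 2 h, 0.85 for 0 and 8 h and 0.94 for 2 and 8 h, as a description across genes, which are not independent. RPS27L was the lowest of the 37 at each time, at -1.81, -2.30 and -2.21, and can weigh heavily on r. Neither r nor the count of same signs was taken over all genes, so they have no background.

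At 0 h RPS27L (-1.81 ± 0.24, adjusted p = 0.000162), DRAM1 (0.53 ± 0.10, adjusted p = 0.00211) and CCNG1 (0.89 ± 0.19, adjusted p = 0.00741) stayed called without any single library. CDKN1A (-0.71 ± 0.17, adjusted p = 0.0127) lost its call without siControl replicate 2 (0.0708) or sip53 replicate 2 (0.0526). ASCC3 (-0.57 ± 0.13) lost it without sip53 replicate 3 (adjusted p = 0.0664), and TNFRSF10A (-0.44 ± 0.10) without sip53 replicate 2 (adjusted p = 0.0591). FBXW7, called only at this time (-0.35 ± 0.11, adjusted p = 0.0436), lost it without siControl replicate 2 (-0.20, adjusted p = 0.263), sip53 replicate 2 (0.141) or sip53 replicate 3 (0.180). The FBXW7 call was also lost with upper-quartile scaling (0.0522), no filter (0.0740) and a fit on the compared groups alone (0.171). In that last fit CDKN1A, CCNG1 and TNFRSF10A lost their 0 h calls as well, at adjusted p of 0.0643, 0.0709 and 0.0711. The count of 7 was 4 without sip53 0 h replicate 2.

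At 2 h the larger changes were those of RPS27L (-2.30 ± 0.25, adjusted p = 8.86e-06), GDF15 (-1.52 ± 0.39), CDKN1A (-1.22 ± 0.17, adjusted p = 0.000142) and ZMAT3 (-0.91 ± 0.16, adjusted p = 0.00106). These apart from GDF15 stayed called without any single library, as did ASCC3 (-0.74 ± 0.13), XPC (-0.54 ± 0.11) and DRAM1 (0.43 ± 0.10). APAF1, called only at this time (-0.85 ± 0.22, adjusted p = 0.0146), lost its call without siControl replicate 3 (0.0714), sip53 replicate 1 (0.0733) or sip53 replicate 3 (0.0565). GDF15 lost it without siControl replicate 3 (0.0946) or sip53 replicate 3 (0.0882). GADD45A (-0.57 ± 0.17) lost it without siControl replicate 1 or 2 or sip53 replicate 2 or 3, at adjusted p of 0.0745 to 0.130. TNFRSF10A (-0.36 ± 0.10) and TP53I11 (-0.46 ± 0.15) each lost it without siControl replicate 2 or 3 or any of the 3 sip53 samples, at adjusted p of 0.0549 to 0.150 and 0.0505 to 0.204. The count of 11 was 7 without siControl 2 h replicate 3 and 6 without sip53 2 h replicate 3.

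At 8 h RPS27L (-2.21 ± 0.25, adjusted p = 1.19e-05), CDKN1A (-0.98 ± 0.17, adjusted p = 0.00120), GADD45A (-0.77 ± 0.16, adjusted p = 0.00530), ZMAT3 (-0.72 ± 0.16) and DRAM1 (0.44 ± 0.10) stayed called without any single library. ASCC3 (-0.57 ± 0.13) lost its call without siControl replicate 1 (adjusted p = 0.0774). CCNG1 (0.72 ± 0.19) lost it without siControl replicate 1 or 3 or sip53 replicate 3, at adjusted p of 0.0647 to 0.0964. GDF15 (-1.47 ± 0.38) lost it without siControl replicate 2 or sip53 replicate 1 or 3, at 0.0639 to 0.101. TP53I11 (-0.64 ± 0.15) lost it without siControl replicate 1 or sip53 replicate 1 or 3, at 0.0521 to 0.0536, and XPC (-0.46 ± 0.11) without siControl replicate 2 (0.0644) or sip53 replicate 3 (0.116).

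The ranges of the samples gave a plainer view of the same values. Over all 9 samples of each arm, sip53 lay wholly below siControl in 5 of the 37 genes, which were RPS27L, CDKN1A, TNFRSF10A, TP53I11 and XPC, against 1.63% of all genes. It lay wholly above in 1, CCNG1, against 1.56% of all genes. With 3 samples against 3 the arms separated more often among all genes too. At 0 h sip53 lay wholly below in 12 of the 37 and above in 4, against 11.9% and 12.6% of all genes. At 2 h the counts were 15 and 4, against 18.1% and 15.1%, and at 8 h they were 12 and 5, against 14.9% and 14.6%.

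E2 changed few of these genes. At 2 h against 0 h, 0 of the 37 were called by edgeR in sip53 cells, against 0.307% of all genes (0.268% higher and 0.0392% lower), and 0 in siControl cells, against 0.228% of all genes, with 8 and 7 of them at an unadjusted p under 0.05, and DESeq2 also called 0 in each arm. At 8 h against 0 h, 3 of the 37 were called in sip53 cells, 1 higher and 2 lower, against 2.74% of all genes (1.55% higher and 1.18% lower). In siControl cells 4 were called, 3 higher and 1 lower, against 2.6% of all genes (1.78% higher and 0.823% lower). In each arm the 2 h and 8 h comparisons share the 0 h samples. The genes called at 8 h were GADD45A, SERTAD1, GDF15, PERP and ZMAT3.

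GADD45A was higher after 8 h of E2 in both arms. In sip53 cells it had 90.0, 119 and 93.6 CPM at 8 h, against 83.6, 55.6 and 53.3 CPM at 0 h. In siControl cells it had 191, 191 and 133 CPM at 8 h, against 82.1, 78.1 and 96.3 CPM at 0 h. The 8 h samples lay above the 0 h samples of the same arm in every case. The log2 fold change was 0.65 ± 0.16 in sip53 cells (adjusted p = 0.0304) and 1.00 ± 0.16 in siControl cells (adjusted p = 0.000874). The siControl call held without any single library, while the sip53 call was lost without sip53 0 h replicate 2 (0.135), sip53 0 h replicate 3 (0.163) or sip53 8 h replicate 2 (0.137). SERTAD1 was lower after 8 h of E2 in both arms, with 21.6, 23.3 and 19.9 CPM at 8 h against 31.4, 29.6 and 32.0 CPM at 0 h in sip53 cells. In siControl cells it had 19.1, 22.3 and 21.4 CPM at 8 h against 35.2, 32.3 and 30.1 CPM at 0 h. The groups did not overlap, and the log2 fold change was -0.52 ± 0.12 in sip53 cells (adjusted p = 0.0197) and -0.64 ± 0.12 in siControl cells (adjusted p = 0.00522). The siControl call of SERTAD1 held without any single library. Its sip53 call was lost without sip53 0 h replicate 1 or 3 or sip53 8 h replicate 1 or 3, at adjusted p of 0.0569 to 0.135.

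GDF15 and PERP were called in siControl cells. GDF15 changed by 0.35 ± 0.40 in sip53 cells (adjusted p = 0.751) and by 1.40 ± 0.38 in siControl cells (adjusted p = 0.0495), where all 8 h samples lay above all 0 h samples. PERP changed by 0.27 ± 0.12 in sip53 cells (adjusted p = 0.287) and by 0.45 ± 0.12 in siControl cells (adjusted p = 0.0447). Both siControl calls were lost without siControl 0 h replicate 1 or 2 or any of the 3 siControl 8 h samples, at adjusted p of 0.0671 to 0.253 for GDF15 and 0.0528 to 0.225 for PERP. The GDF15 call was also lost with RLE size factors (0.0521), upper-quartile scaling (0.0535) and a fit on the compared groups alone (0.107), and the PERP call with that fit (0.178). ZMAT3 was called in sip53 cells, at -0.62 ± 0.16 (adjusted p = 0.0371), against -0.29 ± 0.16 in siControl cells (adjusted p = 0.374). That ZMAT3 call was lost without any one of the 6 sip53 0 h and 8 h samples, at adjusted p of 0.0673 to 0.142. The count of 3 in sip53 cells was 1 without sip53 0 h replicate 1, 2 or 3 or sip53 8 h replicate 1 or 2, and the count of 4 in siControl cells was 2 without siControl 0 h replicate 2 or siControl 8 h replicate 1 or 2. Without sip53 0 h replicate 3, GADD45A, SERTAD1 and ZMAT3 all lost their sip53 calls, and the 1 gene counted there was another one.

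The arms were also compared in the size of the E2 response. By edgeR 0 of the 37 genes were called at 2 h and 0 at 8 h, as was 0% of all genes, with 3 and 1 of the 37 at an unadjusted p under 0.05, and DESeq2 called 0 of them. GDF15 had the lowest differences, sip53 minus siControl, at -1.10 ± 0.57 at 2 h (unadjusted p = 0.0648) and -1.05 ± 0.55 at 8 h (unadjusted p = 0.0713), each with an adjusted p above 0.99. The difference of GADD45A at 8 h was -0.36 ± 0.23 and that of ZMAT3 was -0.34 ± 0.23. No gene of the 37 was thus shown to respond to E2 differently in the arms, and how large a difference would have been called was not tested.

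**Figure D3:**
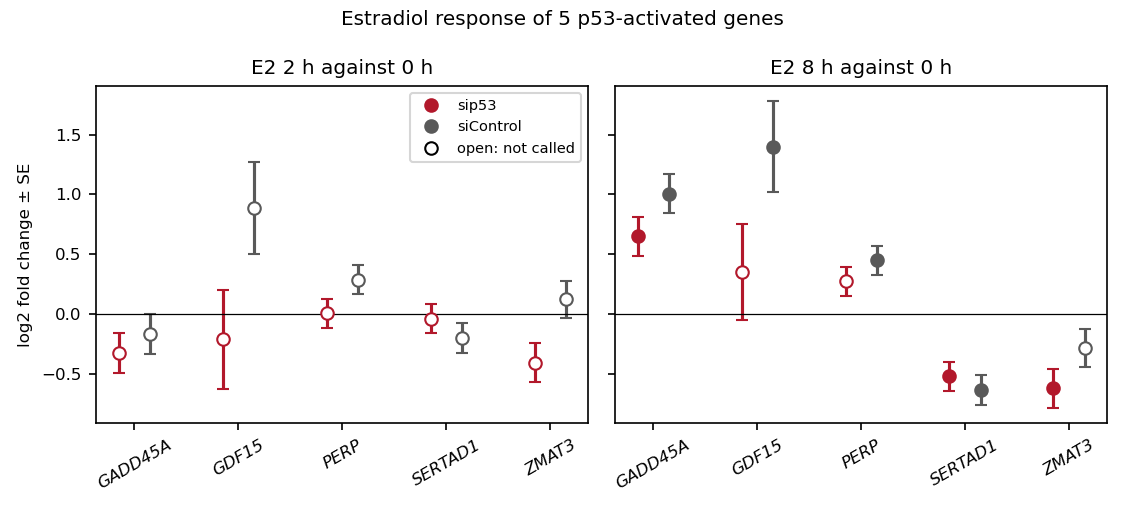
Log2 fold change ± SE of the 5 genes called in an E2 comparison, 2 h against 0 h at left and 8 h against 0 h at right, with sip53 in red left of siControl in grey and open points not called. At 8 h GADD45A is at 0.65 in sip53 cells and 1.00 in siControl cells, and GDF15 is at 0.35 in sip53 cells and 1.40 in siControl cells with long error bars.

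A wider list of 66 further p53-activated genes, taken from knowledge of the pathway, was set beside these. Of them, 62 were tested and 20 were called in the mean over the times (32.3%), 12 lower (19.4%) and 8 higher (12.9%), which was close to the shares of all genes (34.6%, 18.5% and 16.1%). Their median log2 fold change was 0.00. The genes with the smallest adjusted p among the lower ones were SESN2, a stress-induced inhibitor of mTORC1 (-0.49 ± 0.07, adjusted p = 8.14e-06), ANKRA2, an ankyrin repeat protein (-0.56 ± 0.08), BTG1, an antiproliferative gene related to BTG2 (-0.39 ± 0.06), and IKBIP (-0.77 ± 0.12). The higher ones included NTPCR, a nucleoside triphosphatase (0.33 ± 0.07, adjusted p = 0.000440), FAM210B (0.27 ± 0.06) and the lysosomal fucosidase gene FUCA1 (0.38 ± 0.10). MDM2, the ubiquitin ligase that p53 induces and that degrades p53, had 37.3, 44.7 and 54.6 CPM in sip53 samples and 37.0, 43.0 and 52.2 CPM in siControl samples. The arms overlapped throughout, and MDM2 was not called (0.05 ± 0.08, adjusted p = 0.636). PPM1D, the phosphatase that ends p53 signalling, was not called either (0.00 ± 0.12, adjusted p = 0.986).

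**Figure D4:**
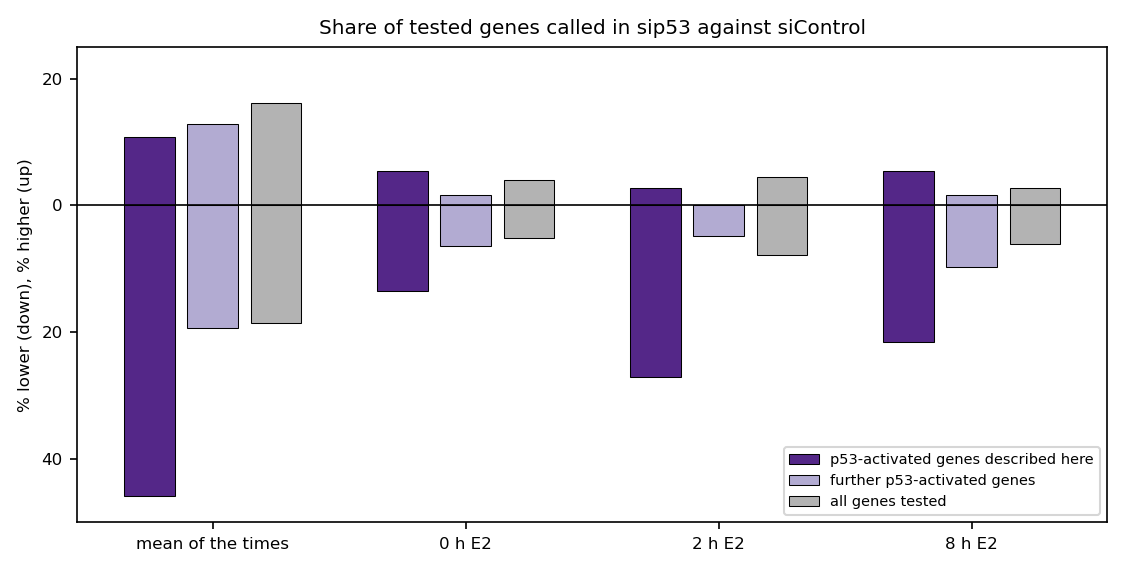
Percentage of tested genes called higher (bars upward) or lower (bars downward) in sip53 against siControl, in the mean over the E2 times and at each time, for the 37 p53-activated genes, 62 further p53-activated genes and all 15318 genes. In the mean, 45.9% of the 37 genes are lower, against 19.4% of the further genes and 18.5% of all genes.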

How the data were processed

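RNA of 18 PEO1 samples (6 groups of 3) was made into QuantSeq 3′ mRNA-Seq V2 FWD libraries from 200 ng of RNA with 16 PCR cycles, per the labels' protocols. The deposited table holds RSEM expected counts made by the authors, with RSEM 1.3.3 listed beside cutadapt, Bowtie2, MultiQC and build hg19 in the submitters' processing notes. The aligner settings and the annotation are not given in the sources used here. All values were already whole, so rounding moved none. Rows are sets of Ensembl transcripts and were named through GENCODE v29 (GRCh38) and current symbols. Of these rows, 52673 held transcripts of 1 gene, 267 took the name of the gene with most of their transcripts, while 154 with no such gene and 4642 with no matching transcript got no name. Rows without a name held 0.635% of counts. Those of them that passed the filter were tested with the rest and count among all genes. Coordinates are on GRCh38.

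Tests used edgeR 4.0.16 in R 4.3.3: filterByExpr with a minimum count of 10, TMM scaling, and a quasi-likelihood fit (glmQLFit, glmQLFTest) to all 18 samples with 1 coefficient per group, leaving 12 residual degrees of freedom. P-values were adjusted by Benjamini-Hochberg over the 15318 genes tested, and genes were called under 0.05. The biological coefficient of variation was 15.2%, and the chi-square per degree of freedom between samples of a group was 4.04 to 22.9, above counting noise. No label states that samples of a group were separate cultures, so p-values reflect only how far these samples spread, which may be technical. In counts simulated from these samples, 200 genes above 1 CPM were changed by 1 on the log2 scale, and 15004 genes were tested. Of the 200, 84% were called in the mean over the times, and 59%, 62% and 59% at 0, 2 and 8 h. In the data a far larger share, 34.6% of all genes, was called in the mean. The adjustment of p depends on that share, so recovery at the share in the data was not tested. Alternatives were DESeq2 1.42.0, RLE and upper-quartile scaling, other filters, a replicate block, fits on the compared groups alone and leaving out each library.

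The genes and lists were chosen with earlier results of these data known. Sample values are given for every gene called in the mean knockdown comparison. A gene called at 1 time or after E2 is named with its values there. Uncalled genes are given by range, with up to 2 examples per role of the highest average level, and AEN and PANK1 are also named for their sequence. From the further p53-activated and cell cycle lists, up to 4 called genes per direction with the smallest adjusted p are named, plus MDM2, PPM1D, SESN2 and RPS27. The level of the gene the siRNA targets, and 1 gene of the further list that this rule would name, are not reported here, so the depth of the knockdown is not given.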

Additional observations from a re-analysis of the deposited data

How the results depend on the processing

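The count of p53-activated genes called in the mean over the times was 21 and ran from 20 to 21 under DESeq2, both other scalings, both other filters and the replicate block, and from 19 to 22 when 1 library was left out. On the compared groups alone, the count was 3 in place of 7 for knockdown at 0 h, 13 in place of 11 at 2 h and 10 again at 8 h, and it went to 0 of 3 for E2 8 h in sip53 cells and to 1 of 4 for E2 8 h in siControl cells. Without 1 library, the counts were 4 to 9 for knockdown at 0 h, 6 to 10 at 2 h, 7 to 11 at 8 h, 1 to 2 for E2 8 h in sip53 cells, 2 to 4 for E2 8 h in siControl cells and 0 to 1 for E2 2 h in siControl cells, where the 1 came without siControl 0 h replicate 1. With no filter, 1 gene was called for E2 2 h in sip53 cells. The counts for the difference between arms stayed at 0 in every setting tried. The replicate numbers showed little pairing of the samples: 3 of 45 same-number pairs had a correlation of deviations over 0.1. The median correlation was 0.012 for same-number pairs and -0.0033 for other pairs. Such values cannot settle whether the numbers mark a shared batch, since the noise of single libraries also lowers them. The replicate block gave 2 calls in place of 4 for E2 8 h in siControl cells, where GDF15 (0.0632) and PERP (0.0555) lost their calls, and with it RRM2B in the mean (adjusted p 0.0505) and FBXW7 at 0 h (0.0525) were not called. Upper-quartile scaling ended the calls of RRM2B (0.0527) and, at 2 h, of TP53I11 (0.0532). No fold change named as called changed sign in the 959 refits, and 103 of them lost the call, 80 of these among 588 that left out 1 library. Scaling moved the median of all genes by less than 0.05 on the log2 scale. Genes of low level, such as GDF15, POLH and BTG2 (all under 10 CPM in every sample), had the larger errors, and 5 genes were too scarce to test.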

Other observations

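The 40 cell cycle genes known to be lowered through p53 and p21 were also read, since CDKN1A was lower. All 40 were tested, and in the mean over the times 9 were lower and 7 higher in sip53 cells (40% called, against 34.6% of all genes), with a median log2 fold change of 0.00. The following had the smallest adjusted p in each direction. ASPM, a spindle pole protein, had 213, 277 and 554 CPM (lowest, median, highest) in sip53 samples and 420, 530 and 629 CPM in siControl samples, and changed by -0.81 ± 0.11 (edgeR adjusted p = 1.13e-05). The 554 CPM was that of sip53 0 h replicate 1, which lay within the siControl range, and the other sip53 samples were at 213 to 363 CPM. That library was also the highest sip53 sample for CENPF, at 510 CPM. The kinetochore protein gene CENPF changed by -0.51 ± 0.09, the spindle checkpoint kinase gene BUB1B by -0.48 ± 0.09 and PRC1, which bundles microtubules of the central spindle, by -0.41 ± 0.08. The higher genes included E2F1, a transcription factor of S phase entry, with 62.1, 72.4 and 81.5 CPM in sip53 samples and 46.6, 53.3 and 61.7 CPM in siControl samples (0.40 ± 0.07, adjusted p = 0.000113). The arms of E2F1 did not overlap. LMNB1, a nuclear lamina gene, changed by 0.30 ± 0.06, the centromere histone gene CENPA by 0.42 ± 0.10 and the replicative helicase gene MCM2 by 0.25 ± 0.06. Taken singly, the times gave 2 of the 40 as higher with 0 lower at 0 h (5% and 0%, against 3.98% and 5.14% of all genes), 3 higher with 5 lower at 2 h (7.5% and 12.5%, against 4.42% and 7.79%) and 0 higher with 3 lower at 8 h (0% and 7.5%, against 2.81% and 6.14%).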
